A study of Mus musculus with 16 samples.

Results

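The genes described here carry long-chain fatty acids into the mitochondrion and oxidise them there, together with Pdk4, the kinase that turns down the use of pyruvate, and Ppara, the nuclear receptor that drives this programme. Members were the rows whose gene symbol was Cpt1a, Cpt2, Acadl, Acadm, Acadvl, Hadha, Hadhb, Pdk4 or Ppara, 9 of the 24060 genes in each table. They were read in 16 RNA-seq libraries from mouse somatosensory cortex. All mice were C57BL/6J, 3 months of age, carried Aldh1l1CreERT2-RiboTag and had received tamoxifen at 2 months, the naïve mice included. Cre recombinase under the astrocyte promoter Aldh1l1 switches on an HA-tagged ribosomal protein, so ribosomes can be pulled out of tissue lysate with an antibody. RNA bound to these ribosomes (IP) and RNA of the cleared lysate of the whole tissue (INPUT) were sequenced from naïve mice kept in the home cage and from mice that swam for 20 min and then rested for 90 min in the home cage. Each fraction of each condition had 4 libraries. Replicates are named here by library number, and neither the sex of each mouse nor which IP and INPUT library shared a mouse was given with the samples. The labels placed the swim 1 month after tamoxifen, whereas the study's methods gave a shorter wait. Values are CPM, a gene's reads scaled to a fixed library total, with 16392876 to 25814364 reads per library.

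Fatty acids are activated to acyl-CoA, transferred to carnitine by CPT1 on the outer mitochondrial membrane and handed back to coenzyme A by CPT2 inside. Acyl-CoA dehydrogenases then start each round of beta-oxidation, and the trifunctional protein, a complex of HADHA and HADHB, completes the rounds for long chains. Pyruvate dehydrogenase kinases phosphorylate and shut the enzyme through which pyruvate enters the same mitochondrial cycle. PDK4 rises with fasting and glucocorticoids in muscle and liver, and in the brain astrocytes are the cells best known for oxidising fatty acids.

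The astrocyte label held against its markers. All 7 astrocyte markers were higher in naïve IP than in naïve INPUT, with summed levels of 82693 to 87336 CPM against 5036 to 5403 CPM. All 7 neuron, 5 oligodendrocyte and 5 microglia markers were lower in IP, as were 5 of 6 endothelial and mural markers; under median ratio scaling, described below, 1 microglia marker, Ptprc, was no longer called. The exception was Pdgfrb, a receptor of mural cells, with 132 ± 11.8 CPM (SD, n = 4) in naïve IP against 25.4 ± 1.45 CPM in naïve INPUT. Across the IP libraries of both conditions, 4 of 5 microglia and 4 of 6 endothelial and mural markers averaged over 1 CPM. The rest of these markers could pass the filter of 1 CPM on the mean through INPUT, where they were higher. None of the markers of any list was at 0 in any group, and the neuron markers still summed to 444 to 573 CPM in naïve IP. Fewer cells of a type and less RNA per cell cannot be told apart in such bulk samples. In each of the 4 groups 1 library stood furthest from the rest. The chi-square per gene of its reads against the others was 17.0 to 21.0 for naïve IP replicate 11, where other naïve IP pairs gave 6.27 to 9.35, and 23.7 to 31.3 for stress IP replicate 15, where other stress IP pairs gave 10.4 to 12.6. In INPUT it was 12.9 to 15.3 for naïve replicate 14 (other pairs 4.4 to 6.9) and 17.0 to 17.9 for stress replicate 9 (other pairs 5.4 to 12.3). Leaving out replicate 11 took the genes called between stress and naïve IP from 55 to 122, and leaving out replicate 15 took them to 101. Between stress and naïve INPUT, 6 genes became 32 without replicate 14 and 18 without replicate 9. None of the 9 members passed in these stress comparisons with any of these libraries left out.

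Promoter sequences from RefSeq (GRCm38.p6) were found for all 9 members. Those of Pdk4, of Cpt1a and of the stretch between the start sites of Hadha and Hadhb are shown because these genes carry the main contrasts below. Each runs 5′ to 3′ up to the RefSeq start site, with AGGTCA, the core element of nuclear receptors such as PPAR alpha, and the GC box GGGCGG in capitals on either strand.
Pdk4, chr6:5496279-5496528, minus strand: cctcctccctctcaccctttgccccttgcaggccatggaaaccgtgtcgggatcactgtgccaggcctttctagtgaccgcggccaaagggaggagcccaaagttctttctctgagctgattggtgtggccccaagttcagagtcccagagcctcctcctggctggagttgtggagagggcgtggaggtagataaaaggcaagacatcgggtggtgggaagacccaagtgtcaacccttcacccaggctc
Cpt1a, chr19:3323051-3323300, plus strand: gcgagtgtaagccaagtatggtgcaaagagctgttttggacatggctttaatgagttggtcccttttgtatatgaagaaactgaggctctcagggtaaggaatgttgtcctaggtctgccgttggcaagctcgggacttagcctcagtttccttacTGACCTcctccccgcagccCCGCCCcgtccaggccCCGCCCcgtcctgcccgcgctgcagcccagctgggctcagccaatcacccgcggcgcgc
Hadha to Hadhb, chr5:30154981-30155252, plus strand: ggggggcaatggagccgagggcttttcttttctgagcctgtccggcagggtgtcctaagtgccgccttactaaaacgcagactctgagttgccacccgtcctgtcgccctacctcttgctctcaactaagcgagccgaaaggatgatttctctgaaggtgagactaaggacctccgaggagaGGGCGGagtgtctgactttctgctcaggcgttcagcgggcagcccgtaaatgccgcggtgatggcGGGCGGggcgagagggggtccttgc
Hadha and Hadhb are transcribed away from each other from RefSeq start sites 273 bases apart, so the last sequence lies upstream of both sites. The gene spans printed below come from GENCODE, whose outermost starts differ from the RefSeq ones. Within those spans lie the whole Cpt1a sequence and parts of the other sequences shown. Cpt1a held AGGTCA 94 bases before its start, and Acadvl and Acadm held it too, which made 3 of 9 members in windows of 250 bases before to 50 after the start. It was present in 16.3% of all 32851 windows of this length. The DR1 element, in which AGGTCA stands in tandem with 1 base between the copies, was found in 13 windows and in 0 of 9 members. GGGCGG was held by 6 of 9 members and 35.7% of all windows, and Pdk4 held neither motif. The GGGCGG of Hadha is the same site as a copy counted for Hadhb, since their windows overlap. AGAACA, a core of glucocorticoid receptor sites, was in 19.0% of all windows and in 0 of 9 members.

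All 9 members were more abundant in the astrocyte fraction than in whole cortex. In naïve mice the log2 ratio of IP to INPUT, on log2(CPM + 0.1), lay between 2.29 for Acadvl and 3.64 for Cpt1a, and all 9 passed at adjusted p between 6.31e-14 and 5.12e-10 (limma with Benjamini-Hochberg adjustment over 13339 genes). In this comparison 3158 genes, 23.7% of those tested, were called higher in IP, and the median of all genes was −0.64. In stressed mice the ratios ran from 2.32 to 3.74, and again all 9 were called higher, where 23.6% of 13333 genes were. The naïve and the stressed mice are different animals and share no library. When libraries were rescaled by the median ratio over genes, the median of all genes in naïve mice moved to −0.01, the split of calls from 3158 higher and 8540 lower to 5572 and 5655 (in stressed mice from 3143 and 8332 to 5436 and 5531), and the members' ratios to between 2.92 and 4.27. The plot shows each of the 9 members by library.

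**Figure D1:**
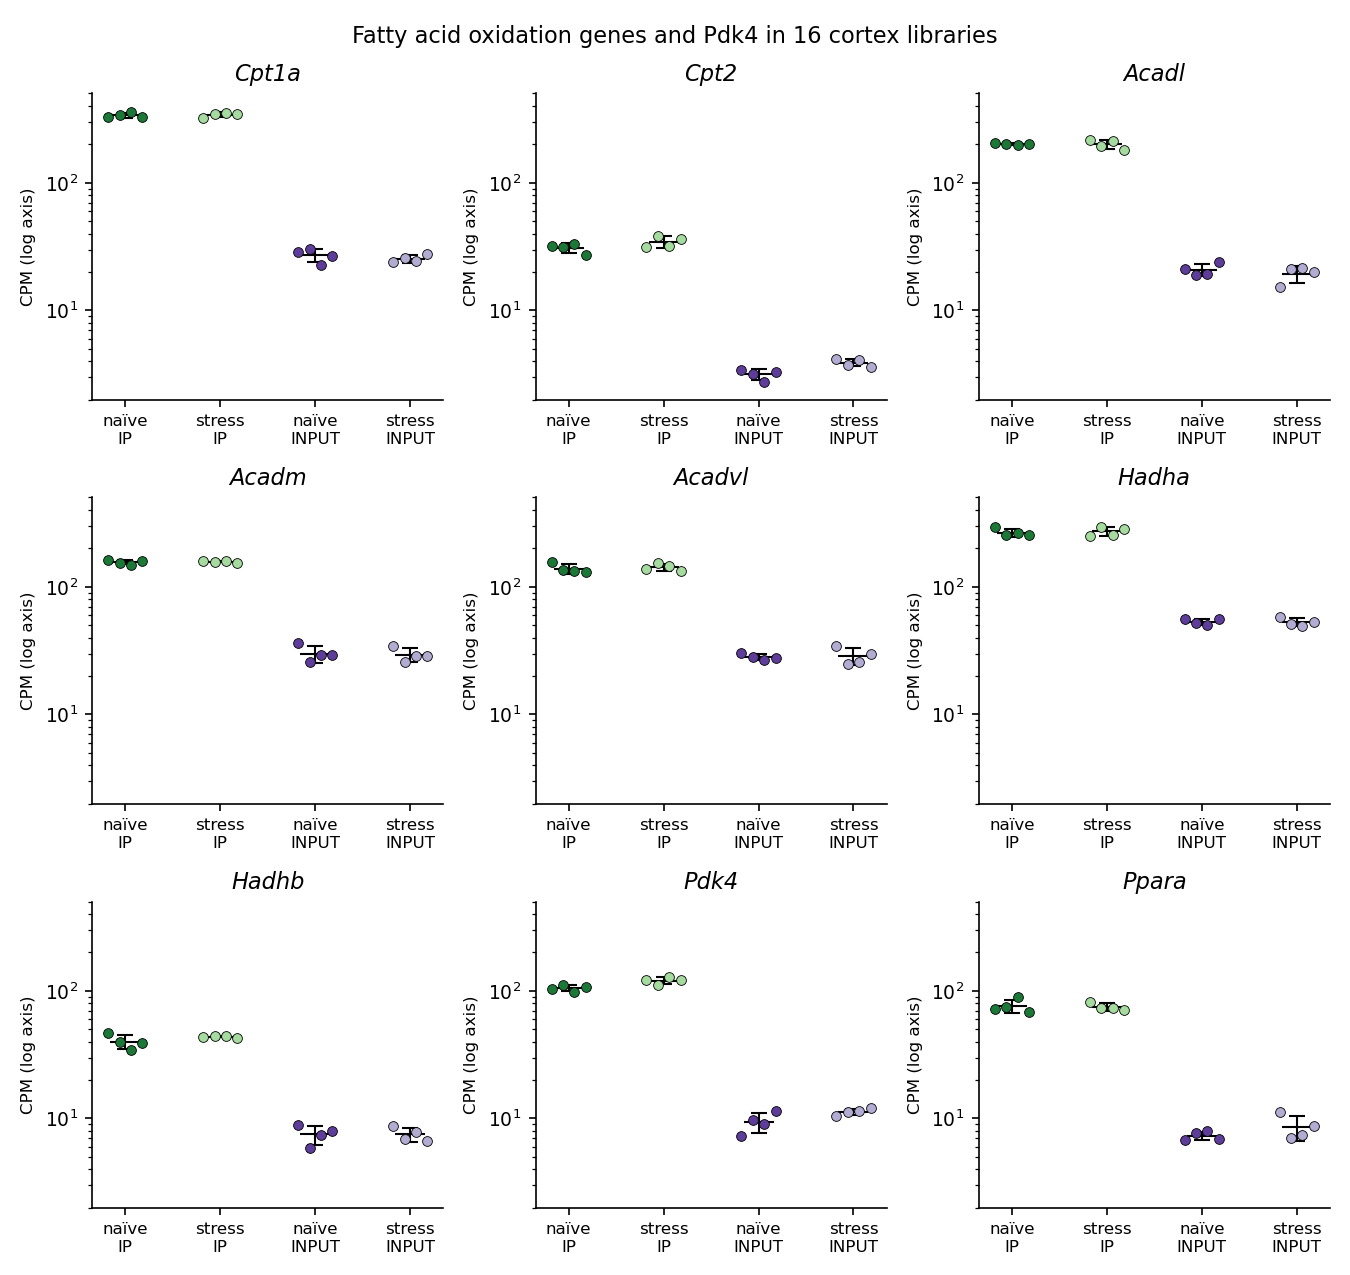
CPM of each gene in every library on a log axis, with 4 libraries for each fraction and condition, shown as points with the mean and SD as bars. IP points lie far above INPUT points in each panel, and stress and naïve points of the same fraction lie side by side.

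Seen after the fit, the ratios fell into a higher and a lower set. The sets were cut from these same ratios, so the gap between them is a description and was not tested. Cpt1a, Pdk4, Ppara, Acadl and Cpt2 lay between 3.25 and 3.64, and Hadhb, Acadm, Hadha and Acadvl between 2.29 and 2.41. In naïve mice the lowest 95% bound in the higher set was 3.02 (Cpt2) and the highest in the lower set was 2.68 (Hadhb). In stressed mice these bounds were 2.84 (Ppara) and 2.75 (Hadhb). Since the cut was placed at the gap, the bounds describe the sets and do not test them. Among all 13339 genes ranked by this ratio, Cpt1a stood at 47, Pdk4 at 89 and Ppara at 125, while Acadvl stood at 641. Genes of the same enzyme complex, Hadha and Hadhb, had ratios of 2.31 and 2.41. The astrocyte markers themselves ranged from 2.87 to 4.50.

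The carnitine shuttle was led by Cpt1a, the enzyme that sets the rate at which long-chain fatty acids enter mitochondria (chr19:3322334-3385733, GRCm38). Cpt1a measured 327, 341, 358 and 326 CPM in naïve IP and 319, 349, 351 and 343 CPM in stress IP. In INPUT it measured 28.9, 30.3, 22.8 and 26.8 CPM in naïve and 24.0, 25.9, 24.2 and 27.7 CPM in stressed mice. The fractions were thus 12.4-fold apart in naïve mice, and the stress and naïve values overlapped in each. Cpt2 (chr4:107903981-107923610) measured 31.9, 31.4, 33.4 and 27.3 CPM in naïve IP and 31.2, 38.5, 32.2 and 36.2 CPM in stress IP. In INPUT Cpt2 was low, at 3.44, 3.18, 2.74 and 3.31 CPM in naïve and 4.15, 3.76, 4.06 and 3.64 CPM in stressed mice. These INPUT values rested on 54 to 89 reads, and those of stressed mice all lay above those of naïve mice.

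Among the acyl-CoA dehydrogenases, ACADVL acts on the longest chains, ACADL on long and ACADM on medium chains. Acadl (chr1:66830839-66863277) measured 207, 199.5, 199 and 202 CPM in naïve IP, the tightest naïve IP values of any member, with a coefficient of variation of 1.75%. In naïve INPUT it was at 20.9 ± 2.21 CPM (SD, n = 4), which placed it 9.65-fold higher in IP. Acadm (chr3:153922357-153944632) had 156 ± 5.65 CPM in naïve IP against 30.0 ± 4.49 CPM in naïve INPUT. For Acadvl (chr11:70010183-70015411) the naïve IP libraries gave 139 ± 12.3 CPM and the INPUT libraries 28.3 ± 1.41 CPM. Of the exon bases of Acadvl, 1151 (42.9%) lie opposite exons of Dvl2, and whether counting used strand was not given, so its values are uncertain. Dvl2 itself had 11.4 ± 2.02 CPM in naïve IP against 12.8 ± 1.84 CPM in naïve INPUT, and its ratio between fractions did not pass (log2 −0.17, adjusted p = 0.26) but became 0.46 and was called under median ratio scaling.

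The trifunctional protein needs both of its subunits, yet their reads were unequal in every library. Hadha (chr5:30118304-30155162) measured 292, 253, 262 and 255 CPM in naïve IP, and Hadhb (chr5:30155248-30184593) 46.9, 39.7, 34.5 and 38.9 CPM. The ratio of Hadha to Hadhb in CPM was 6.69 ± 0.62 (SD, n = 4) in naïve IP, 6.19 ± 0.50 in stress IP, 7.23 ± 1.13 in naïve INPUT and 7.09 ± 0.77 in stress INPUT. The excess was therefore alike in astrocyte ribosomes and whole tissue within the spread between libraries. Per kilobase of exon the ratio in naïve IP was 5.02 over all merged exons, 7.25 over the longest transcripts and 3.44 over the exons of RefSeq mRNAs, so its size depended on the gene model.

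Ppara (chr15:85734983-85802819) measured 72.3, 75.1, 88.8 and 67.9 CPM in naïve IP and 7.35 ± 0.55 CPM (SD, n = 4) in naïve INPUT, a 10.2-fold difference on the fitted scale. Pparg, the adipocyte receptor, was lower in IP (log2 −2.27, adjusted p = 1.04e-07), also under median ratio scaling (−1.65). Ppard, the widely expressed receptor, named after its values had been seen, was at −0.02 (adjusted p = 0.88) and became 0.61, a call, under median ratio scaling.

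Pdk4 (chr6:5483351-5496309) measured 103, 111, 97.9 and 107 CPM in naïve IP and 121, 111, 128 and 122 CPM in stress IP. In INPUT it was at 7.29, 9.66, 9.08 and 11.4 CPM in naïve and 10.5, 11.3, 11.4 and 12.1 CPM in stressed mice. Pdk4 was thus 11.2-fold higher in IP than INPUT in naïve and 10.5-fold higher in stressed mice.

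Per kilobase of merged exons, the order of levels in naïve IP was Acadl (101 ± 1.76 CPM per kilobase, SD, n = 4), Acadvl (51.6 ± 4.57), Cpt1a (44.2 ± 1.97), Acadm (39.8 ± 1.45), Hadha (30.4 ± 2.11), Pdk4 (29.8 ± 1.60), Ppara (19.8 ± 2.35), Cpt2 (13.0 ± 1.10) and Hadhb (6.06 ± 0.78). Only Hadha and Pdk4, among neighbours in this order, had ranges that overlapped. Over the exons of RefSeq mRNAs, the annotation in which reads were counted, Cpt1a (78.3), Acadm (76.0), Hadha (66.1) and Acadvl (64.0) moved close together below Acadl (105), Hadhb rose to 19.2, and Cpt2 came last at 13.1. The steps from Cpt1a to Acadm, from Hadha to Acadvl and from Ppara to Hadhb were then within the range of the libraries. In naïve INPUT, Acadl gave up this lead, with Acadvl at 10.5 ± 0.53 and Acadl at 10.4 ± 1.10 CPM per kilobase of merged exons and overlapping ranges.

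Both enzyme families with several genes changed their make-up between the fractions. CPT1 is encoded by Cpt1a, the muscle form Cpt1b and the neuronal form Cpt1c. Cpt1a made up 90.5% ± 0.51 (SD, n = 4) of the family's CPM per kilobase of merged exons in naïve IP and 19.5% ± 2.49 in naïve INPUT. Cpt1c made up 9.46% ± 0.47 in IP and 80.5% ± 2.39 in INPUT, and was lower in IP (log2 −1.67, adjusted p = 9.14e-12). Cpt1b had 0 to 5 reads in any library. Among the pyruvate dehydrogenase kinases, Pdk4 made up 28.1% ± 1.75 in naïve IP and 5.09% ± 0.86 in naïve INPUT. Pdk2, the widely expressed form, was the largest in both, at 63.0% ± 1.92 and 42.3% ± 2.49. Pdk1 and Pdk3 made up 4.51% ± 0.29 and 4.42% ± 0.28 in IP against 25.3% ± 0.69 and 27.3% ± 2.03 in INPUT. The size of the shares depended on the gene model. Over the exons of RefSeq mRNAs, Pdk4 made up 21.9% ± 1.47 in naïve IP and 3.78% ± 0.64 in naïve INPUT. There Pdk2 made up 68.7% ± 1.74 and 43.8% ± 2.48, and Cpt1a 89.4% ± 0.55 and 17.6% ± 2.29 of its family. Pdk2 was higher in IP (log2 1.60, adjusted p = 1.82e-10), and Pdk1 (−1.47, adjusted p = 1.15e-11) and Pdk3 (−1.60, adjusted p = 8.59e-11) were lower, directions that all held under median ratio scaling.

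**Figure D2:**
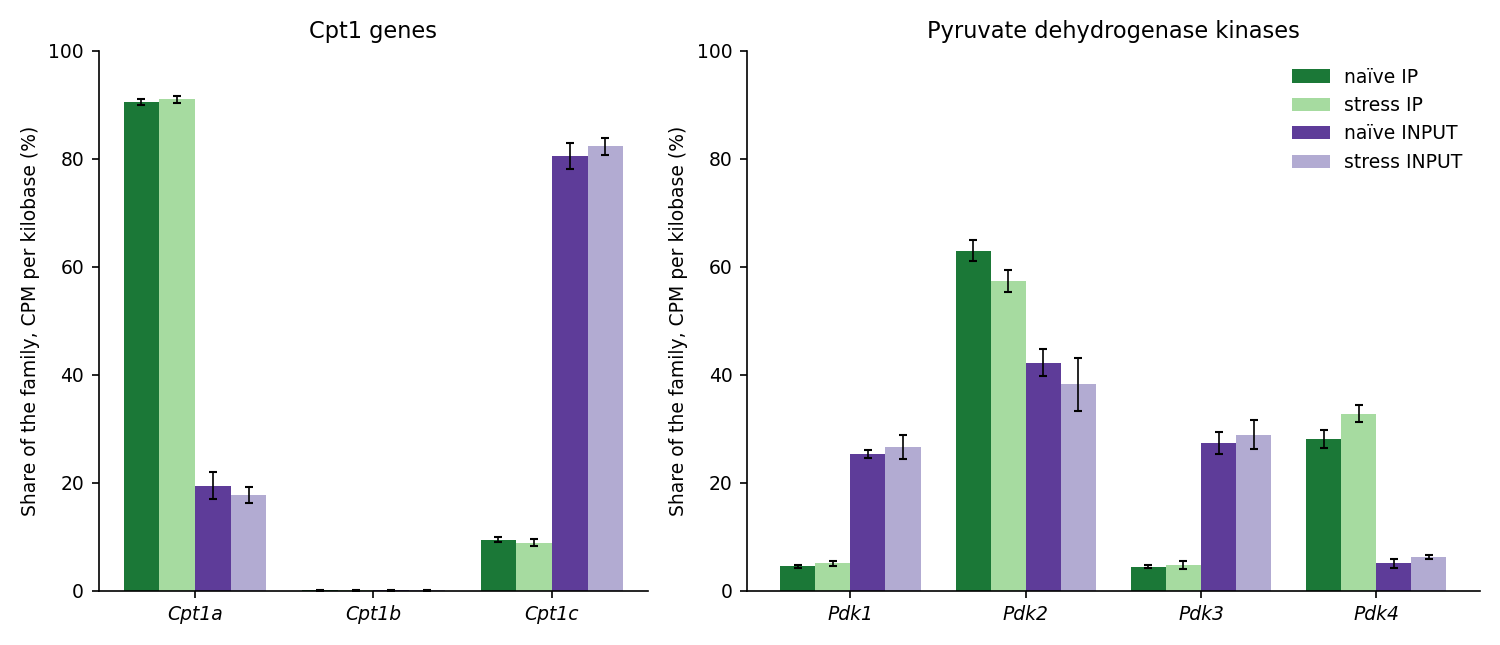
Share of each gene in its family's CPM per kilobase of merged exons, as the mean of 4 libraries with the SD, for the Cpt1 genes (left) and the pyruvate dehydrogenase kinases (right) in the 4 groups. Cpt1a held 90.5% of its family in naïve IP and 19.5% in naïve INPUT, and Pdk4 held 28.1% and 5.09%.

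In the IP libraries, per kilobase of merged exons, the share of Pdk4 in its family ranged from 25.5% to 29.2% in naïve and from 30.6% to 34.2% in stressed mice. The share of Pdk2 ranged from 61.2% to 65.7% and from 55.8% to 60.2%. Neither pair of ranges overlapped. Pdk4 and Pdk2 hold most of the same total, so a higher share of Pdk4 lowers that of Pdk2, and the separations are not independent. In CPM, the stress and naïve IP values of each of these genes overlapped. The shares were examined after the values had been seen and were not tested.

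The other genes of the pathway were mostly, but not all, higher in the astrocyte fraction. Over all genes tested in naïve mice, 23.7% were called higher in IP. Of 18 further mitochondrial beta-oxidation genes tested, 17 were called higher in naïve IP and 1, Cpt1c, lower, with a median log2 ratio of 1.99. The highest was Acaa2 (3.10, adjusted p = 1.15e-13), the thiolase of the last step, with 104 ± 4.88 CPM in IP against 12.0 ± 0.97 CPM in INPUT. Acad12, also among the 17, averaged 4.85 CPM in naïve IP and 0.85 CPM in naïve INPUT. It thus passed the filter of 1 CPM on the mean only through IP, where it was higher. Peroxisomal beta-oxidation, which shortens very long chains, had 11 of 13 genes higher and 1 lower, from Crot (3.06), which exports shortened chains as carnitine esters, to Decr2 (−1.33). Under median ratio scaling the mitochondrial count of higher genes was again 17, and the peroxisomal count became 12.

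Uptake and activation genes split, against 3158 higher and 8540 lower of all 13339 genes tested in naïve mice. Of 11 genes tested, 6 were higher in IP and 5 lower, under both scalings. Across the IP libraries of both conditions 10 genes of this list averaged over 1 CPM, so a gene could pass the filter through INPUT alone. The acyl-CoA synthetase Acsbg1 was highest, with 2404 ± 150.1 CPM in naïve IP against 170.0 ± 13.1 CPM in naïve INPUT (log2 3.82, adjusted p = 1.11e-14). The 5 lower genes were Fabp3 (−4.25), the fatty acid binding protein of muscle and neurons, the synthetases Acsl5 (−3.56), Acsl1 (−2.33) and Acsl4 (−2.09), and the transporter Slc27a4 (−1.40). All but Fabp3 among these were named after their values had been seen.

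Genes around the members' regulators were more mixed. Over all 13339 genes tested in naïve mice, 3158 were called higher in IP and 8540 lower. Under median ratio scaling these counts were 5572 and 5655. Of 11 genes of pyruvate dehydrogenase and its regulators, 7 were higher and 4 lower in naïve IP, and under median ratio scaling 8 and 3. The phosphatases that oppose the kinases stood at both ends, with Pdp2 at 2.05 (adjusted p = 7.94e-11) and Pdp1 at −3.41 (adjusted p = 2.05e-14). Of the 8 PPAR and partner receptors other than Ppara, 1 was higher and 5 lower, near the split over all genes. Under median ratio scaling the receptor counts were 3 and 3, again near that split. Across the IP libraries of both conditions 7 of these receptors averaged over 1 CPM, so a receptor could pass the filter through INPUT alone. The gene of this list called higher before rescaling was the coactivator Ppargc1a (0.85, adjusted p = 1.37e-07). Of 7 PPAR target genes tested, 6 were higher, up to Ucp3 (3.27, adjusted p = 9.63e-12), a mitochondrial carrier induced by fatty acids. The exception, Ucp2, was lower (−0.49, adjusted p = 0.015), and its ratio turned to 0.13 under median ratio scaling. Malonyl-CoA blocks CPT1. In the list around it, the mitochondrial-surface carboxylase Acacb was higher (2.84, adjusted p = 6.85e-10), and the decarboxylase Mlycd did not pass (−0.04, adjusted p = 0.67) but became 0.60 under median ratio scaling. The strip plot by list sets the members beside these groups.

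**Figure D3:**
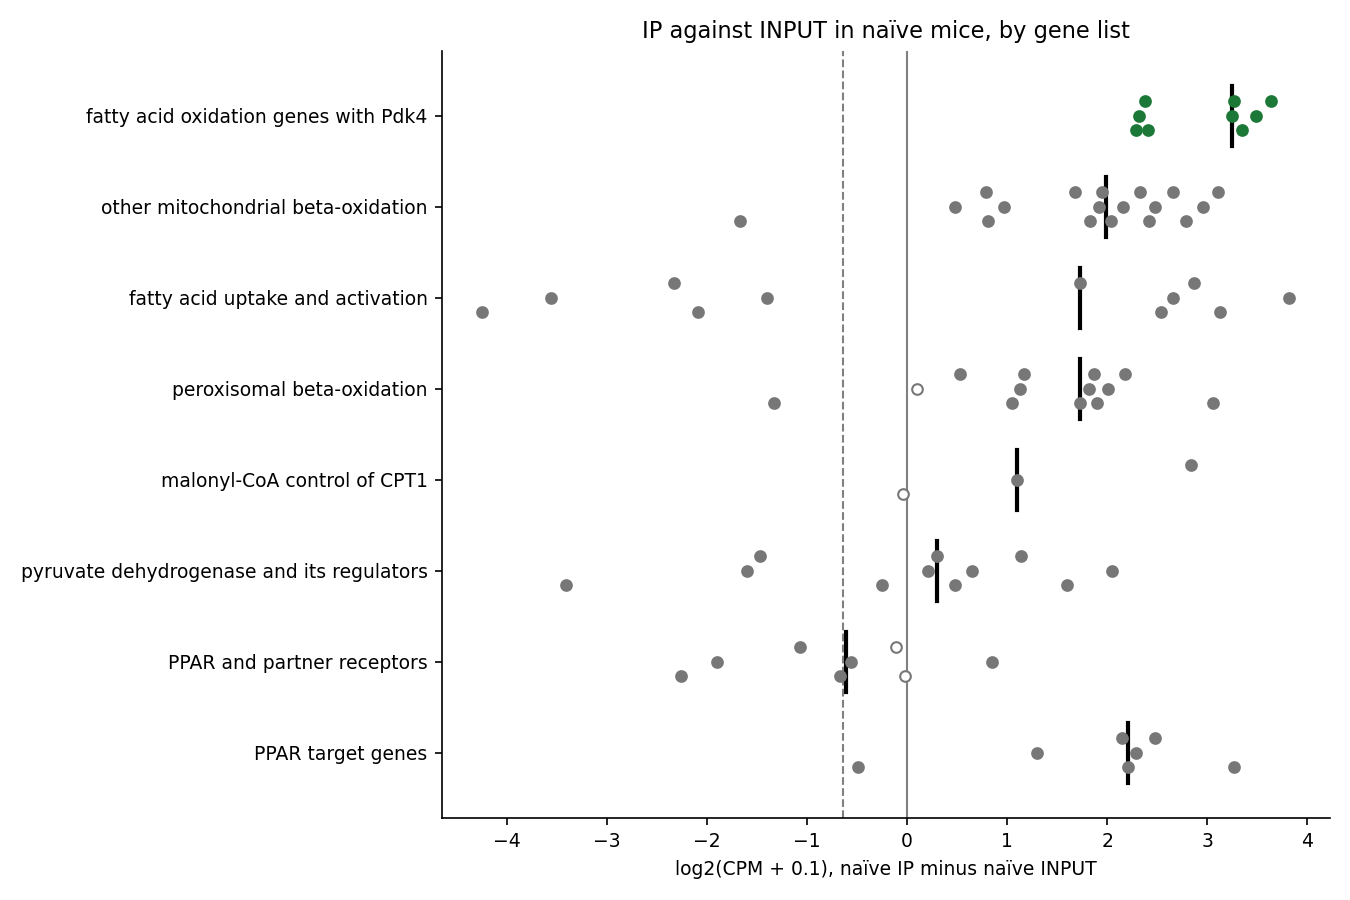
Difference in log2(CPM + 0.1) between naïve IP and naïve INPUT for each gene tested in the lists described here, by list, with filled points for adjusted p under 0.05, open points for the rest, black bars for list medians and a dashed line at the median of all genes (−0.64). The 9 members (green) lie between 2.29 and 3.64 with a median of 3.25, against 1.99 for the other mitochondrial genes.

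Stress differences of the fatty acid oxidation genes in astrocyte ribosomes were small beside those between the fractions. Equality of the levels was not tested. None of the 9 members was called in stress IP against naïve IP (0 of 9), where 55 of 12501 genes, 0.44%, passed in limma. At an unadjusted p under 0.05 there was 1 member, Pdk4, where 8.27% of all genes lay under it, and limma-voom on recovered reads also called 0. Differences in log2(CPM + 0.1) ran from −0.02 for Ppara to 0.20 for Pdk4, with a median of 0.03 over the members and −0.0036 over all genes tested. Cpt1a differed by 0.01 (95% interval −0.11 to 0.13), Acadm by 0.02 (−0.09 to 0.13) and Acadl by −0.01 (−0.15 to 0.13). For Cpt1a the interval spans 0.93 to 1.09 as a fold change, so larger changes of either sign lie outside it. Hadha differed by 0.03 (−0.12 to 0.18) and Acadvl by 0.04 (−0.11 to 0.20). The widest interval in IP was that of Cpt2 (0.15, −0.04 to 0.35). The stress IP libraries ranged from 180 to 217 CPM for Acadl, on both sides of the naïve libraries, and from 154 to 160 CPM for Acadm, inside the naïve range. The median coefficient of variation over the 9 members was 6.94% in naïve IP and 6.21% in stress IP, against 10.6% and 12.5% in naïve and stress INPUT.

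Pdk4 had the largest difference of the 9, with 120 ± 7.12 CPM in stress IP against 105 ± 5.60 CPM in naïve IP (SD, n = 4 each). The difference was 0.20 on the log2 scale (95% interval 0.06 to 0.34, adjusted p = 0.35 in limma, unadjusted 0.0083). Of the stress values 3 of 4 lay above every naïve value, and the fourth, 110.5 CPM, just below the highest naïve value of 110.7 CPM. The two-sided exact permutation test gave p = 0.057, where the smallest value it can give is 0.029. Without naïve IP replicate 11, which held the lowest Pdk4 value, the difference was 0.17 (adjusted p = 0.47), and without stress IP replicate 15 it was 0.19 (adjusted p = 0.27). Over all alternatives the adjusted p ranged from 0.22 to 0.69. Summed neuron markers ranged from 364 to 517 CPM in stress IP and from 444 to 573 CPM in naïve IP, and endothelial and mural markers from 107 to 151 and from 142 to 167 CPM. In naïve IP most of the endothelial and mural sum came from Pdgfrb, the only marker of that list higher in IP. The part of these markers in the result was not tested.

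Hadhb, the next in order with Cpt2, measured 43.6, 44.3, 44.4 and 43.0 CPM in stress IP, inside the naïve range of 34.5 to 46.9 CPM (log2 0.14, 95% interval −0.05 to 0.33, adjusted p = 0.71). Its coefficient of variation in stress IP, 1.48%, was the smallest of any member and group. Naïve IP replicate 11 had the lowest Hadhb value, 34.5 CPM, as well as the highest Ppara value, 88.8 CPM. Without it the difference was 0.07 for Hadhb and 0.06 instead of −0.02 for Ppara, and neither passed. Without stress IP replicate 15, which held the lowest Acadl value, Acadl differed by 0.04 instead of −0.01, and the other 7 members besides Pdk4 by 0.0050 (Hadha) to 0.15 (Hadhb).

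In whole tissue 0 of 9 members were called as well, where 6 of 13577 genes, 0.0442%, passed in limma. At an unadjusted p under 0.05 there was again 1 member, Pdk4, where 5.03% of all genes lay under it, and limma-voom called 0. Pdk4 had 11.3 ± 0.65 CPM in stress INPUT against 9.35 ± 1.69 CPM in naïve INPUT, a log2 difference of 0.29 (95% interval 0.01 to 0.56, adjusted p = 0.97). The groups overlapped, with 1 stress library above all naïve libraries, and the exact permutation test gave p = 0.11. Without naïve INPUT replicate 3, the lowest at 7.29 CPM, the difference was 0.17, and without replicate 16, the highest, 0.39.

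Cpt2 was the only member with a stress comparison free of overlap, in INPUT, with all 4 stress INPUT values above all 4 naïve INPUT values. Such separation upward was seen in 1.43% of all genes in INPUT, and in IP in 0 of 9 members and 2.38% of all genes. The log2 difference of Cpt2 was 0.30 (95% interval −0.02 to 0.61, adjusted p = 0.99), and the exact permutation p was 0.029, the smallest possible here. Ppara differed by 0.20 (−0.11 to 0.52), with stress INPUT replicate 1 at 11.3 CPM and the other 3 stress libraries at 7.05 to 8.66 CPM. The remaining 6 members lay between −0.11 (Acadl) and 0.01 (Hadhb).

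**Figure D4:**
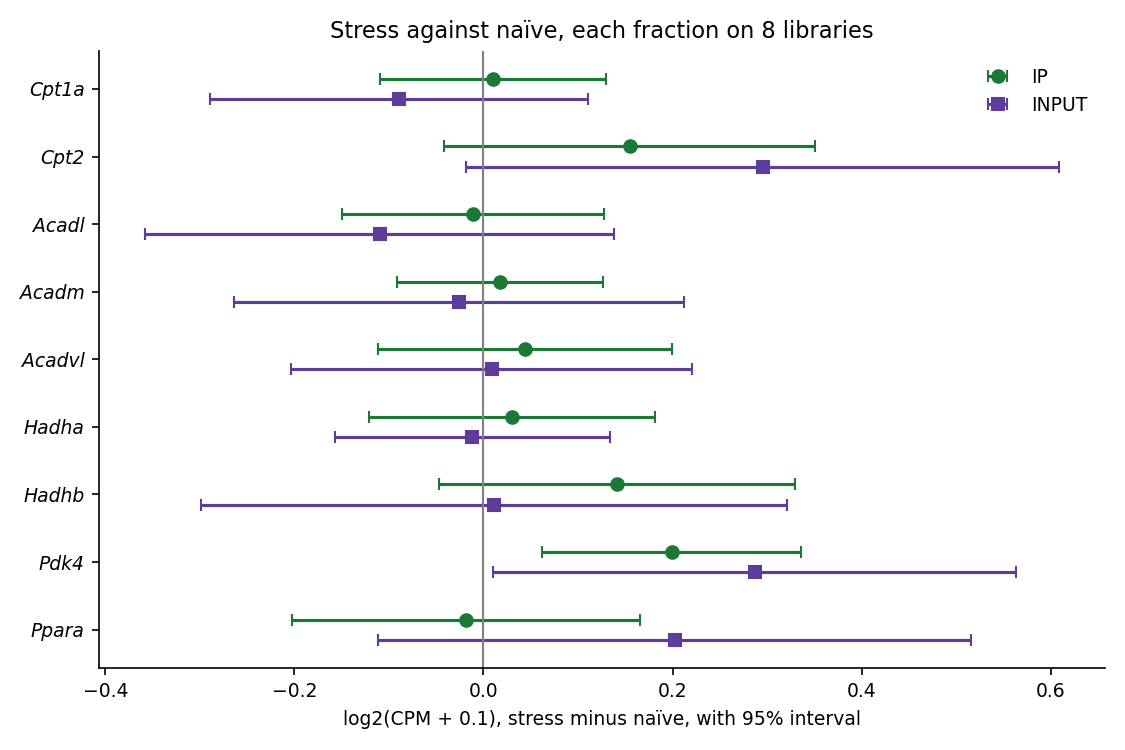
Stress minus naïve in log2(CPM + 0.1) for each gene, with 95% intervals from limma, in IP (circles) and INPUT (squares), each from 4 stress and 4 naïve libraries. Pdk4 lies at 0.20 in IP and 0.29 in INPUT with intervals just above 0, and none of the 9 genes passed after adjustment in either fraction.

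Whether stress acted differently on the fractions was asked with the difference between both effects on all 16 libraries. The fit treated these libraries as independent, although each mouse gave both an IP and an INPUT library. None of the 9 members passed (0 of 9), where 3 of 13341 genes, 0.0225%, did in limma, and 0 members were under an unadjusted p of 0.05. The differences, IP minus INPUT, ran from −0.22 for Ppara (95% interval −0.58 to 0.13) to 0.13 for Hadhb (−0.22 to 0.48), and that of Pdk4 was −0.09 (−0.38 to 0.21). With 1 library left out, the difference ranged from −0.31 to −0.083 for Ppara and from 0.045 to 0.24 for Hadhb. The difference of Ppara was nearest to 0 without stress INPUT replicate 1 and farthest without stress INPUT replicate 9, and that of Hadhb without naïve INPUT replicates 3 and 7, respectively. The intervals allow moderate differences of either sign.

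None of the other pathway genes passed in a stress comparison. In IP, 0 of 73 genes tested outside the members were called (5 at an unadjusted p under 0.05), in INPUT 0 of 74 (4), and in the difference of effects 0 of 75 (2). Their median log2 differences were 0.03 in IP and 0.0035 in INPUT. In the family of Pdk4, Pdk1 measured 38.6, 37.0, 36.4 and 36.7 CPM in naïve IP and 40.3, 42.6, 41.8 and 40.5 CPM in stress IP, which did not overlap (log2 0.15, adjusted p = 0.52). Such separation upward in IP was seen in 2.38% of all genes. Pdk2 differed by −0.16 (adjusted p = 0.62), with stress libraries at 170 to 214 CPM and naïve libraries at 195 to 227 CPM.

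Over the 8 IP libraries, the genes whose log2(CPM + 0.1) followed Pdk4 most closely were Nr4a3 (Pearson r = 0.96), a nuclear receptor of the immediate early class, Lnx2 (0.96), Mipol1 (0.96), Zfp78 (0.96) and Pno1 (0.95), among 12500 genes. These 8 points share 2 groups of 4 libraries, and 21 genes had r above 0.9. No other member came near, with Hadhb highest at 0.52 and Ppara lowest at −0.32. Over all 16 libraries the closest were Nebl (0.998), Lonrf3 (0.996), Lcat (0.996), Acss1 (0.996) and Notch2 (0.996), and the 8 other members had r between 0.985 and 0.993. These points share the split into IP and INPUT, and 2323 of 13340 genes had r above 0.9 there.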

How the data were processed

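RNA from IP and INPUT of naïve and stressed mice was sequenced in 16 libraries. Reads were mapped to mm10 by the authors with STAR and uniquely mapped fragments counted on RefSeq genes with HTSeq. The deposited values are log2 CPM of 24060 genes, scaled to that library's own total, with a small constant and with no correction for gene length. The constant was removed, and 100% of values then gave whole reads within 0.05 of a read. CPM was recomputed from these reads. Linear models in limma 3.58.1 (R 4.3.3), with empirical Bayes moderation and a variance trend, used log2(CPM + 0.1). Genes entered if they averaged over 1 CPM across the libraries of a comparison, and calls needed a Benjamini-Hochberg adjusted p under 0.05 across every gene that entered. Each comparison used 8 libraries, and the difference of stress effects 16. Libraries were treated as independent, so the intervals and p-values of IP against INPUT and of the difference ignore shared mice. Library totals of 16392876 to 25814364 reads set the counting error, which is all a floor of 3 reads covers. Libraries are labelled as separate samples of a group, and the methods give each animal as homogenised individually. The exact permutation test was two-sided over 70 labelings. The fits were tested on simulated data. Coordinates and exon lengths came from GENCODE M21 (GRCm38, also called mm10), where 22756 symbols were found, and promoters from RefSeq. The genes, lists and tests were chosen with earlier results of these data known. Named were the 9 members in each comparison, the other Cpt1 and Pdk genes, the genes with the highest and lowest ratio of IP to INPUT of each pathway list in naïve mice, and the 5 genes most like Pdk4 over 8 and over 16 libraries. The genes that this rule named in 1 pathway list are not reported here. Other genes are named as chosen from their values. Alternatives were other pseudocounts (1 and 0.01), filters (none, 5 CPM, 1 FPKM), median ratio scaling, limma-voom, array weights, no variance trend, 1 model for all libraries, Xist as a covariate, each library left out, and transcript lengths. RefSeq mRNA lengths were added after seeing the data. Plots and tables were made with Python 3.11.15, SciPy and matplotlib.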

Additional observations from a re-analysis of the deposited data

Results flagged for a closer look

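Angptl4, which encodes a secreted inhibitor of lipoprotein lipase and is a classic PPAR target, differed between stressed and naïve mice with opposite signs in the fractions, and was singled out after its values were seen. It measured 7.78, 6.23, 6.46 and 9.06 CPM in naïve IP and 5.84, 5.28, 5.61 and 2.77 CPM in stress IP, all 4 stress values below all 4 naïve values. The value of 2.77 CPM was that of replicate 15, the library furthest from its group. With 1 library left out, the log2 difference in IP ranged from −0.73 to −0.38. In INPUT it measured 1.69, 1.00, 1.55 and 1.53 CPM in naïve and 2.50, 2.18, 3.65 and 3.97 CPM in stressed mice, all 4 stress values above all 4 naïve values. Neither difference passed in limma, at −0.63 on the log2 scale in IP (adjusted p = 0.46, 0.30 to 0.90 over the alternatives) and 1.02 in INPUT (adjusted p = 0.26, 0.044 to 0.86). The stress effect in IP minus that in INPUT was −1.65 on log2(CPM + 0.1) (95% interval −2.37 to −0.93, adjusted p = 0.18 in limma over all genes, unadjusted 0.00013), so it did not pass. Over 25 alternatives the adjusted p ranged from 0.032, with array weights, to 0.46. The INPUT libraries held 17 to 80 reads of this gene. Separation of all 4 stress values above all 4 naïve values was seen in 1.43% of all genes in INPUT. Separation downward in IP was not counted over all genes. Endothelial and mural markers summed to 76 to 104 CPM in stress INPUT and 91 to 119 CPM in naïve INPUT, and their part in this result was not tested. In the 36 groups of 4 libraries of the 9 members, no library stood apart by Dixon's test, where chance alone gives about 1.8.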

How the results depend on the processing

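All 9 members were called higher in IP in both comparisons, and 0 of 9 in the stress comparisons and their difference, under every alternative run. The filter of 5 CPM left Cpt2 out of the INPUT fit. Signs of small stress differences turned, the cause not tested. With median ratio scaling Cpt1a in IP was −0.0026. With array weights Acadl and Ppara in IP were 0.018 and 0.019, and Hadhb in INPUT −0.064. With limma-voom Acadvl and Hadhb in INPUT were −0.0056 and −0.0013. Ratios of IP to INPUT in naïve mice turned for Mlycd (0.60), Ppard (0.61), Dvl2 (0.46) and Ucp2 (0.13) with median ratio scaling. Leaving out 1 library at a time turned the following ranges across 0. In IP they were −0.0061 to 0.042 for Cpt1a, −0.049 to 0.038 for Acadl, −0.0018 to 0.037 for Acadm, −0.0089 to 0.077 for Hadha and −0.070 to 0.059 for Ppara. In INPUT they were −0.16 to 0.0021 for Acadl, −0.11 to 0.069 for Acadm, −0.083 to 0.077 for Acadvl, −0.054 to 0.021 for Hadha and −0.10 to 0.096 for Hadhb. In the difference of effects they were −0.013 to 0.15 for Acadl, −0.052 to 0.13 for Acadm, −0.033 to 0.13 for Acadvl and −0.19 to 0.025 for Pdk4. The ratio of Mlycd in stressed mice ran from −0.011 to 0.11, and that of Ppard in naïve mice from −0.11 to 0.039.

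Counts over all genes moved more, which touches the background beside the members. The 55 genes called in IP became 143 with array weights, 19 without a variance trend, 124 in 1 model of 16 libraries and 17 to 122 with 1 library left out (122 without naïve IP replicate 11, 101 without stress IP replicate 15). The 6 in INPUT became 11 with median ratio scaling, 50 with array weights, 2 in 1 model and 1 to 32 with 1 library left out (32 without naïve INPUT replicate 14). Without a variance trend limma called 0 in INPUT, with 727 at an unadjusted p under 0.05, where limma-voom called 5. The 3 in the difference became 19 with array weights and 2 to 28 with 1 library left out (28 without naïve IP replicate 11). No paired analysis was possible because the replicate numbers are library numbers, which no groups share. Cpt2 in INPUT rested on 54 to 89 reads per library, which limits what could be detected there.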

Other observations

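A few further genes around the pathway were singled out after their values had been seen. In INPUT, all 4 stress values lay above all 4 naïve values in 1.43% of all genes. Ucp2, a mitochondrial carrier, measured 5.37, 5.30, 7.63 and 5.80 CPM in naïve INPUT and 8.60, 9.52, 12.6 and 11.4 CPM in stress INPUT, without overlap (log2 0.80, adjusted p = 0.11 in limma). It passed with array weights (adjusted p = 0.0098) and without naïve INPUT replicate 14 (adjusted p = 0.020), and the adjusted p reached 0.43 among the alternatives. Pdp1, the phosphatase that opposes Pdk4, measured 305, 322, 283 and 321 CPM in naïve INPUT and 380, 335, 369 and 361 CPM in stress INPUT, also without overlap (log2 0.23, adjusted p = 0.33, 0.11 to 0.89 over the alternatives). In IP, where Pdp1 was 3.41 lower on the log2 scale, the naïve libraries gave 28.8 ± 1.86 CPM and the stress libraries 30.8 ± 3.82 CPM (SD, n = 4). Acsl3, a synthetase of lipid droplets, had 2107 ± 174 CPM in the naïve and 2490 ± 260 CPM in the stress libraries of IP, with overlapping groups (log2 0.24, adjusted p = 0.44).

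The genes of the Cpt1 and Pdk families that were lower in IP were less reduced there than the neuron markers. Cpt1c stood at −1.67, Pdk1 at −1.47 and Pdk3 at −1.60 in naïve mice, while the 7 neuron markers ranged from −4.74 to −3.88.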
